A study of Mus musculus with 11 samples.

Results

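The set described here holds 28 of the 26512 probes measured in liver RNA of iAST mice: those whose level was higher than with vehicle after 14 d of oral Sorafenib and at a similar level after 83 d of the drug. A probe belonged to it when all 8 Sorafenib arrays lay above all 3 vehicle arrays, when the 83 d mean and the 14 d mean were each at least 0.5 above the vehicle mean, and when the means of the 2 Sorafenib groups differed by less than 0.5. All values are log2(intensity + 16) after quantile normalization, called the log2 level here. The members were thus chosen by their group means and single arrays of all 3 groups, and every difference between the groups given for them is a description without a test.

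Sorafenib is a multikinase inhibitor of RAF kinases and of the receptors for VEGF and PDGF, taken by mouth for hepatocellular carcinoma. The liver is also the main organ that clears such drugs, so a treated liver can differ from an untreated one both in its tumour tissue and in its response to a foreign compound. Whole liver lysate mixes hepatocytes or tumour cells with endothelial cells, stellate cells and immune cells, and in such bulk RNA a change in the number of cells of a type and a change in RNA per cell cannot be told apart.

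There were 3 groups: Sorafenib for 83 d at 60 mg/kg (n = 4), Sorafenib for 14 d at that dose (n = 4) and vehicle for 14 d (n = 3). All were labelled as tumour liver of iAST mice of strain C57BL6n aged 12 to 15 weeks, with 1 age range for every group, so that the age at sampling of the 83 d livers is not clear from it. iAST is known as a line in which hepatocytes express a viral large T antigen once Cre has acted, a feature that the treated and the vehicle livers share and that the labels do not spell out. No vehicle livers of 83 d were analysed here, so drug and elapsed time cannot be told apart at 83 d. Whether each array stands for its own mouse is not stated, and the livers of 14 d and 83 d are separate samples, so "a similar level at 83 d" compares groups and does not follow 1 liver over time.

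The probes carry Illumina identifiers, which neither the deposited values nor the reference tables used here pair with genes. No gene, pathway, promoter or cell type can therefore be named, and the liver label could not be checked against marker genes. The members are numbered from 1 to 28 by the smaller of their 2 mean differences from vehicle, from the largest down, and only the first 2 are given by identifier.

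The arrays came from 2 chips. The shared chip held all 83 d arrays, all vehicle arrays and 14 d replicate 4. On the second chip were 14 d replicates 1 to 3. The median deposited intensity of an array was 98.7 to 99.9. Because most 14 d arrays were on the second chip, the 14 d differences of the set as a whole are also given for replicate 4 alone.

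The members lay moderately above vehicle. Their median difference from vehicle was 0.92 at 83 d (range 0.51 to 2.24) and 0.76 at 14 d (range 0.51 to 2.19), where the median over all probes was -0.00096 at 83 d and 0.0032 at 14 d. As folds the members spanned 1.43 to 4.72 at 83 d and 1.43 to 4.55 at 14 d. A total of 12 members were at least 2-fold above vehicle at 83 d and 9 at 14 d, and the same 9 reached this in both. At the other end, 10 members had a smaller difference under 0.6, close to the threshold of the rule.

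**Figure D1:**
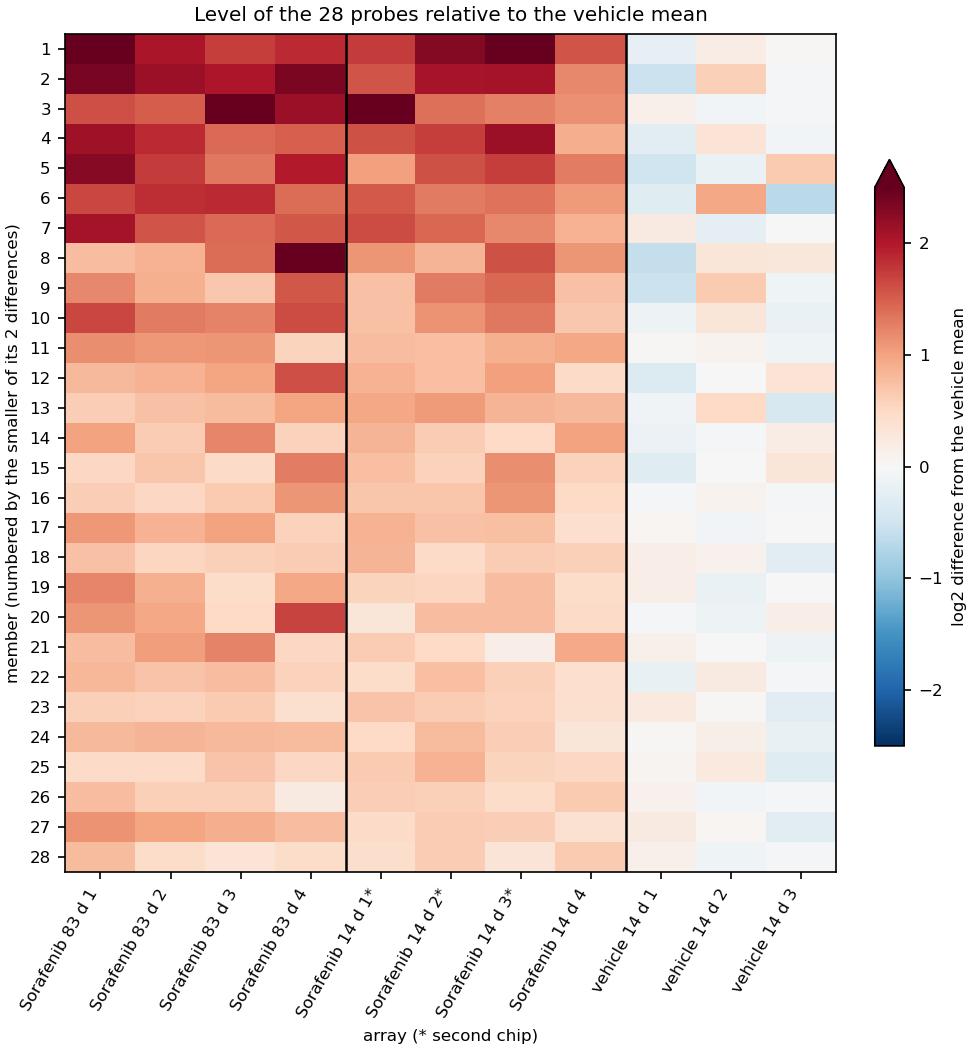
Level of the 28 members in the 11 arrays as the log2 difference from the vehicle mean of each probe, with arrays in columns (Sorafenib 83 d, Sorafenib 14 d, vehicle) and members in rows. All 8 Sorafenib arrays are above the vehicle arrays in every row, as the rule requires, and 14 d replicate 4 is the palest of the 14 d arrays in 17 of 28 rows.

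Few probes met every condition. Over all probes, 378 (1.43%) had all 8 Sorafenib arrays above all 3 vehicle arrays, and most of these differences were small: 41 of them had both means at least 0.5 above vehicle. Of the 41, the 28 members had Sorafenib means within 0.5 of each other, 13 were at least 0.5 higher at 83 d than at 14 d, and 0 were at least 0.5 higher at 14 d. Without the condition on single arrays, 55 probes had both means at least 0.5 above vehicle and less than 0.5 apart, so that 27 probes were left out because at least 1 Sorafenib array did not exceed every vehicle array.

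The members lay well above the level at which most probes lie. Their mean level over the arrays was 7.82 to 13.03 with a median of 9.48, against a median of 6.84 and an upper quartile of 7.61 over all probes. In vehicle livers, 7 members were under a log2 level of 8, 12 were between 8 and 10, and 9 were at 10 or above. The vehicle mean exceeded the upper quartile of all probes in 24 of 28 members and was below their median in 0. Whether a level is above background was not tested. The rule asks for Sorafenib means at least 0.5 above vehicle, so the mean level over the arrays is in part set by the choice. Whether the rule also favours probes that are bright in vehicle livers was not tested.

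Values of single arrays are given in replicate order for the first 12 members. Member 1, ILMN_1256775, had log2 levels of 10.76, 9.49, 9.19 and 9.31 at 83 d, 9.20, 9.74, 10.58 and 9.02 at 14 d, and 7.24, 7.64 and 7.47 with vehicle. Relative to vehicle its level was 4.72-fold higher at 83 d and 4.55-fold higher at 14 d, and the lowest Sorafenib array stood 1.38 above the highest vehicle array, the widest gap of the set. Within both Sorafenib groups 1 liver stood higher than the rest, 83 d replicate 1 and 14 d replicate 3, so that the SD was 0.73 at 83 d and 0.70 at 14 d against 0.20 with vehicle.

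Member 2, ILMN_1226935, had log2 levels of 12.83, 12.60, 12.49 and 12.83 at 83 d, 12.03, 12.53, 12.55 and 11.67 at 14 d, and 9.92, 11.06 and 10.41 with vehicle. It was bright in every liver and relative to vehicle it was 4.66-fold higher at 83 d and 3.32-fold higher at 14 d. The 83 d livers lay close together, with an SD of 0.17, while the vehicle livers spread over more than 1 log2 unit. At 14 d replicate 4 was the lowest, 1.21 above the vehicle mean, where the mean of replicates 1 to 3 was 1.91 above it.

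The log2 levels of member 3 were 9.51, 9.41, 10.47 and 10.06 at 83 d, 10.64, 9.27, 9.17 and 9.05 at 14 d, and 8.03, 7.83 and 7.85 with vehicle. One liver, 14 d replicate 1, stood far above the other 14 d livers, whereas the vehicle livers were within 0.21 of each other. The difference from vehicle was 1.96 at 83 d and 1.63 at 14 d, and without that liver it was 1.26 at 14 d.

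For member 4 the log2 levels were 10.16, 9.91, 9.46 and 9.54 at 83 d, 9.64, 9.77, 10.17 and 8.96 at 14 d, and 7.77, 8.38 and 7.98 with vehicle. Its differences of 1.72 at 83 d and 1.59 at 14 d were nearly equal, and its 14 d replicate 4 was again the lowest treated liver, at 0.91 above the vehicle mean against 1.82 for replicates 1 to 3. Member 5 had log2 levels of 10.21, 9.68, 9.25 and 9.91 at 83 d, 8.96, 9.53, 9.66 and 9.22 at 14 d, and 7.45, 7.78 and 8.60 with vehicle. Its vehicle livers were widely spread, with replicate 3 at 8.60, only 0.36 below the lowest Sorafenib liver.

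Member 6 showed log2 levels of 11.93, 12.10, 12.13 and 11.67 at 83 d, 11.80, 11.55, 11.62 and 11.33 at 14 d, and 9.97, 11.24 and 9.58 with vehicle. The Sorafenib livers were tightly grouped, with SDs of 0.21 at 83 d and 0.19 at 14 d, and vehicle livers were not, with an SD of 0.87. Vehicle replicate 2 came within 0.10 of the lowest Sorafenib liver, although the mean differences were 1.69 at 83 d and 1.32 at 14 d.

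Log2 levels of member 7 were 11.72, 11.21, 11.05 and 11.20 at 83 d, 11.27, 11.08, 10.83 and 10.50 at 14 d, and 9.85, 9.41 and 9.65 with vehicle. The SD was 0.29 at 83 d, 0.33 at 14 d and 0.22 with vehicle, and the gap between the lowest Sorafenib and the highest vehicle liver was 0.65. Member 8 had log2 levels of 9.07, 9.17, 9.70 and 10.81 at 83 d, 9.40, 9.16, 9.89 and 9.40 at 14 d, and 7.71, 8.60 and 8.59 with vehicle. Here 83 d replicate 4 alone exceeded 10, so that the SD at 83 d was 0.80, the largest of any member in that group.

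Member 9 had log2 levels of 12.85, 12.52, 12.31 and 13.18 at 83 d, 12.36, 12.95, 13.08 and 12.37 at 14 d, and 11.09, 12.29 and 11.53 with vehicle. Vehicle replicate 2 was only 0.019 below the lowest Sorafenib liver, the narrowest gap of the set, so this probe met the rule by a very small margin despite differences of 1.08 at 83 d and 1.05 at 14 d. Member 10 had log2 levels of 11.14, 10.76, 10.72 and 11.11 at 83 d, 10.21, 10.59, 10.79 and 10.15 at 14 d, and 9.34, 9.77 and 9.30 with vehicle. Its difference between the Sorafenib groups, 0.496 higher at 83 d, was the largest among the members.

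Member 11 was dim in vehicle livers, with log2 levels of 8.53, 8.45, 8.48 and 7.93 at 83 d, 8.14, 8.14, 8.25 and 8.34 at 14 d, and 7.40, 7.46 and 7.27 with vehicle. The 83 d livers of replicates 1 to 3 were within 0.09 of each other, and 83 d replicate 4 was lower than every 14 d liver. Member 12 had log2 levels of 10.83, 10.89, 11.02 and 11.64 at 83 d, 10.89, 10.79, 11.06 and 10.52 at 14 d, and 9.70, 10.02 and 10.38 with vehicle. Its highest value, as for member 8, was that of 83 d replicate 4.

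**Figure D2:**
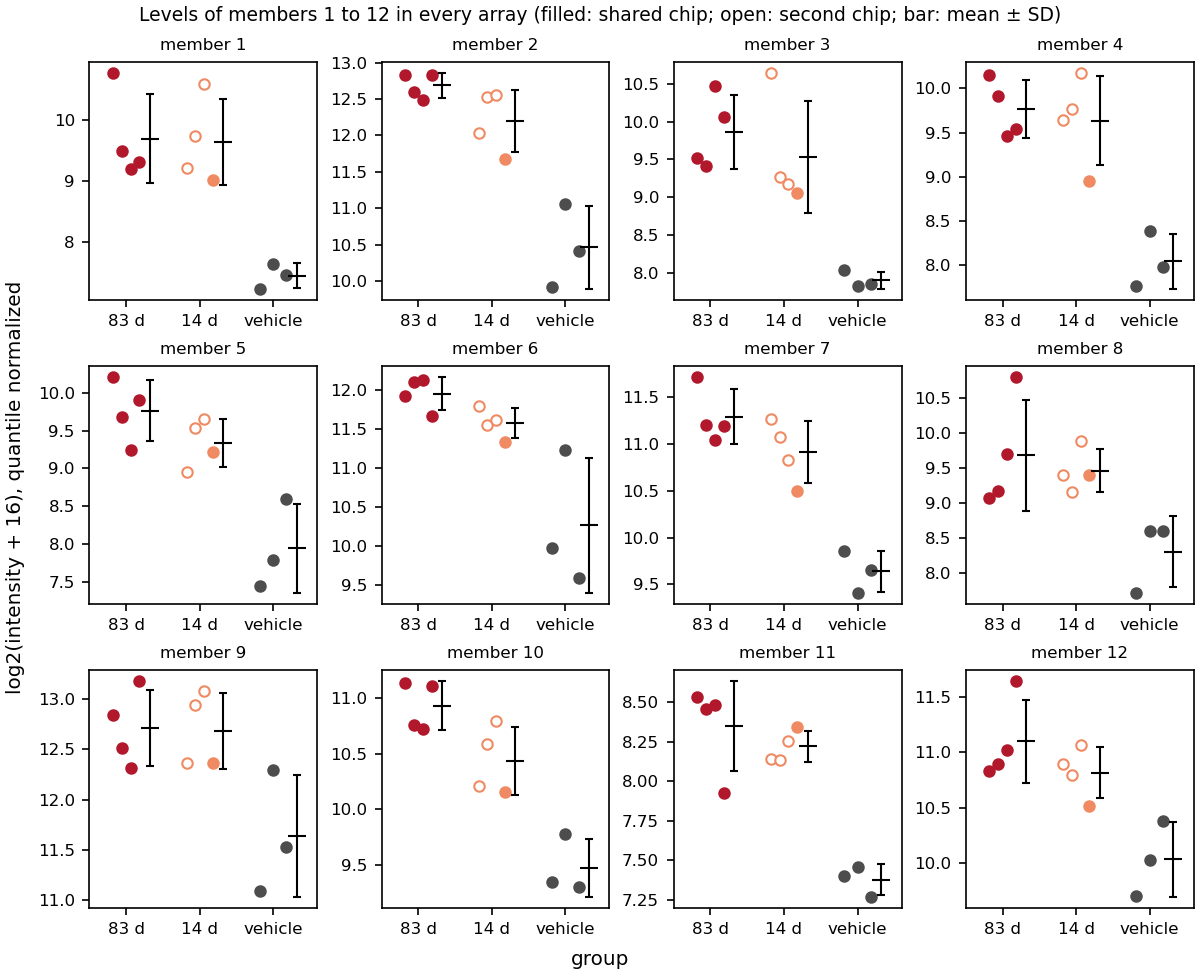
Log2 level of members 1 to 12 in every array, by group (Sorafenib 83 d, Sorafenib 14 d, vehicle), with filled points for the shared chip, open points for the second chip and bars for the mean ± SD. The treated groups overlap each other in each of the 12 panels and neither overlaps vehicle, with the narrowest gap, 0.019, in member 9.

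In the remaining 16 members the differences from vehicle were 0.51 to 1.06 at 83 d and 0.51 to 0.92 at 14 d, ranges that overlap those of the first 12. Member 13 averaged 8.95 ± 0.16 at 83 d and 9.09 ± 0.12 at 14 d, against 8.17 ± 0.45 with vehicle (SD, n = 4, 4 and 3, as for the members that follow). It was 0.14 lower at 83 d than at 14 d, the largest difference in that direction within the set. For member 14 the levels were 8.42 ± 0.30 at 83 d and 8.31 ± 0.22 at 14 d, against 7.56 ± 0.18 with vehicle. Unlike in most members, 14 d replicate 4 was here the highest of the 14 d livers, at 8.56.

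Members 15, 16, 18 and 24 were bright in every liver. Member 15 averaged 13.00 ± 0.37 at 83 d and 13.02 ± 0.28 at 14 d, against 12.25 ± 0.30 with vehicle. Member 16 averaged 12.35 ± 0.26 at 83 d and 12.37 ± 0.25 at 14 d, against 11.63 ± 0.07 with vehicle. In both, the 2 Sorafenib means were within 0.03 of each other. The brightest member, 18, averaged 13.20 ± 0.08 at 83 d and 13.21 ± 0.15 at 14 d, against 12.57 ± 0.25 with vehicle. Its Sorafenib livers all lay between 13.05 and 13.41. Member 24 averaged 11.81 ± 0.02 at 83 d and 11.54 ± 0.20 at 14 d, against 10.99 ± 0.17 with vehicle. The 83 d livers differed here by only 0.06 in all, the tightest group of any member. Each was above each 14 d liver, but barely, with the lowest 83 d liver at 11.787 and the highest 14 d liver at 11.781.

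Among members of middle level, member 17 averaged 8.92 ± 0.23 at 83 d and 8.72 ± 0.19 at 14 d, against 8.03 ± 0.06 with vehicle. For member 19 the means were 10.43 ± 0.32 at 83 d and 10.14 ± 0.13 at 14 d, against 9.55 ± 0.17 with vehicle. Member 20 stood at 9.11 ± 0.49 at 83 d and 8.62 ± 0.23 at 14 d, against 8.04 ± 0.15 with vehicle. Members 19 and 20 had 83 d livers spread over more than 0.7, and the highest liver of member 20 was 83 d replicate 4, at 9.72. Member 23 averaged 9.51 ± 0.11 at 83 d and 9.54 ± 0.13 at 14 d, against 8.96 ± 0.27 with vehicle. Its 83 d and 14 d means were within 0.03 of each other. Member 25 averaged 9.71 ± 0.11 at 83 d and 9.81 ± 0.16 at 14 d, against 9.16 ± 0.28 with vehicle, and member 26 averaged 8.68 ± 0.23 at 83 d and 8.71 ± 0.09 at 14 d, against 8.13 ± 0.09 with vehicle. Both were slightly lower at 83 d than at 14 d.

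Member 27 had log2 levels of 11.60, 11.47, 11.38 and 11.25 at 83 d, 10.95, 11.12, 11.09 and 10.86 at 14 d, and 10.71, 10.53 and 10.19 with vehicle. Its 4 livers of 83 d were all above its 4 livers of 14 d. Member 28, the last of the set, averaged 9.78 ± 0.19 at 83 d and 9.77 ± 0.16 at 14 d, against 9.26 ± 0.13 with vehicle. Its differences of 0.51 at 83 d and 0.51 at 14 d were barely past the threshold. The dimmest members with small differences were 21 and 22. Member 21 averaged 8.19 ± 0.32 at 83 d and 7.86 ± 0.32 at 14 d, against 7.29 ± 0.13 with vehicle. Its lowest Sorafenib liver, 14 d replicate 3 at 7.47, was 0.05 above its highest vehicle liver. Member 22 averaged 8.37 ± 0.11 at 83 d and 8.20 ± 0.15 at 14 d, against 7.64 ± 0.21 with vehicle.

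Several probes lay close to either side of the thresholds. The 5 members with the smallest difference from vehicle had values of 0.51 to 0.55, and the 5 nearest probes that failed only this condition had 0.48 to 0.50. The largest differences between the Sorafenib means among members were 0.42 to 0.50, and the nearest probes beyond the limit had 0.51 to 0.72, all higher at 83 d. The narrowest gaps between the lowest Sorafenib and the highest vehicle array were 0.019 to 0.13 among members, and the nearest probes that failed only by overlap had gaps of -0.052 to -0.012.

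The limma fit over all probes gives the background of the set. After 14 d of drug 0.279% of probes were called higher than with vehicle (limma, adjusted p under 0.05), and at 83 d 1.58%. Both shares moved with single arrays: the 74 probes higher at 14 d became 26 without vehicle replicate 1, 49 and 47 without 14 d replicates 2 and 3, and 131 without 14 d replicate 4, and the 418 higher at 83 d became 263 without vehicle replicate 1. Of the members, 20 of 28 were called at 14 d and 26 of 28 at 83 d, 19 in both and 1, member 28, in neither. The rule used both contrasts, so these counts only describe how the rule and the fit overlap. Members 8, 12, 19, 20, 21, 23 and 27 were called at 83 d alone, and member 25 at 14 d alone.

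The 14 d calls were also counted with the chip taken into account. With chip as a random block, 20 of 28 members were called at 14 d and 26 at 83 d. Over all probes, 68 were called higher than with vehicle at 14 d and 420 at 83 d in that fit. The estimated correlation within a chip was 0.017. With chip as a fixed term the 14 d difference rests on replicate 4 alone. As this sets 1 liver against 3, only the size of the difference is given for the members. The members stood above vehicle in replicate 4 by a median of 0.67 (range 0.31 to 1.57), against a median of 0.81 (range 0.43 to 2.39) for replicates 1 to 3. Replicate 4 was among the arrays that chose the members, so its levels are no independent check.

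Between the treated groups the members leaned towards higher levels at 83 d. The 83 d mean was above the 14 d mean in 21 members and below it in 7, with a median difference of 0.18 (range -0.14 to 0.50), where the median over all probes was -0.0023. Of the 28, 8 differed by less than 0.1 and 9 were at least 0.3 higher at 83 d. Over all probes 1.43% were called between 83 d and 14 d by limma, and 0 of the 28 members were. In 2 members, 24 (barely) and 27, the 83 d and 14 d livers did not overlap, where 6.69% of all probes showed such a separation. The rule itself limits this difference to less than 0.5, so a low count was built in.

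**Figure D3:**
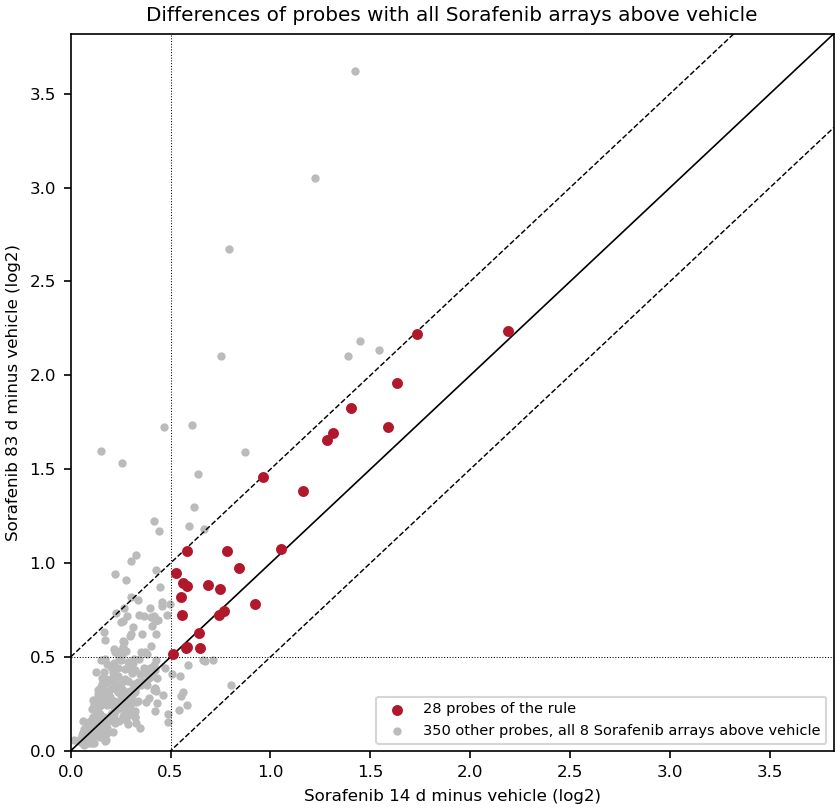
Mean log2 difference from vehicle at 83 d (vertical) against that at 14 d (horizontal) for the 378 probes with all Sorafenib arrays above all vehicle arrays, the 28 members in red and the others in grey. The solid line marks equal differences, the dashed lines a difference of 0.5 between the Sorafenib means and the dotted lines the minimum of 0.5. Of the members, 21 lie above the line of equality, and the probes beyond the upper dashed line are higher at 83 d.

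The mirror image of the rule, with all Sorafenib arrays below vehicle, selected 79 probes. Their median difference from vehicle was -0.79 at 83 d and -0.90 at 14 d, and 27 of 79 were farther from vehicle at 83 d than at 14 d, against 21 of 28 members. The difference between these shares was not tested, and both sets share the same vehicle arrays.

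The 14 d livers of the 2 chips differed within the set. In 17 of 28 members 14 d replicate 4 was the lowest of the 4 livers, as it was in 26.2% of all probes, and it was below the mean of replicates 1 to 3 in 23 members, as in 50.7% of all probes. The median of this difference was -0.22 over the members and -0.0017 over all probes. Replicate 4 was also the lowest of all 8 Sorafenib livers in 14 members, and so it set the gap to vehicle in these. The matching share over all probes was not computed. Whether chip or liver accounts for its lower levels cannot be told apart, because it was the only 14 d liver of its chip.

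The rule was next applied without each array in turn, so that the array left out gave levels the choice had not used. Normalization still included all arrays, and the other vehicle arrays remained part of the choice. The vehicle arrays in the choice were picked as the lowest, so a left-out Sorafenib liver tends to lie above them by the choice alone. How large a share this gives was not computed, and the shares over all probes, which lack the choice, do not show it. The choice without 83 d arrays gave 25 to 34 probes, in which the left-out liver lay above every vehicle liver in 87.1% to 100%, where 26.3% to 27.0% of all probes did so. Its median difference from vehicle was 0.80 to 1.09. With 14 d replicates 1, 2 or 3 left out, 24 to 31 probes were chosen, the share was 90.0% to 95.8% and the median difference 0.66 to 0.76.

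Without 14 d replicate 4 the choice widened to 57 probes, 26 of them members. The left-out liver lay above every vehicle liver in 35 of the 57 (61.4%, against 25.9% of all probes), and its median difference from the vehicle mean was 0.32, where the Sorafenib arrays used for the choice had 0.79. Leaving out a vehicle liver also widened the choice, to 38, 64 and 37 probes for replicates 1, 2 and 3. The vehicle liver left out was below all 8 Sorafenib livers in 31 of 38, 32 of 64 and 25 of 37 of them, where 11.3% to 13.5% of all probes showed this. Its level was 0.13, 0.44 and 0.23 above the mean of the other vehicle livers in the median. The shares for replicate 4 and for the vehicle livers are raised by the choice itself, which picked low vehicle and high Sorafenib arrays. The shares over all probes do not show by how much, so no excess can be read from them. For the left-out 83 d livers the median was 0.80 to 1.09, against 0.77 to 0.83 for the Sorafenib arrays used. The arrays used were averaged over both times, so left-out 83 d livers were set mostly against 14 d arrays. Left-out 14 d livers were set mostly against 83 d arrays. As the members leaned towards higher levels at 83 d, these comparisons cannot show whether differences are smaller outside the choice.

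**Figure D4:**
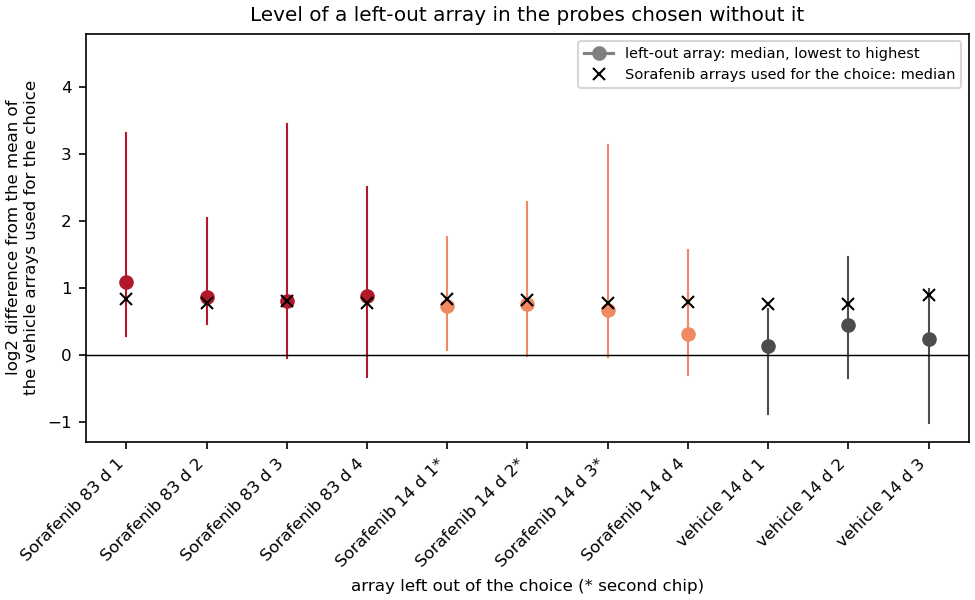
Log2 difference of each left-out array from the mean of the vehicle arrays used for the choice, in the probes chosen without that array (circles: median, lines: lowest to highest, crosses: median of the Sorafenib arrays used for the choice). The median is 0.66 to 1.09 for 7 Sorafenib arrays, 0.32 for 14 d replicate 4, and 0.13 to 0.44 for the vehicle arrays.

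The second chip gave a further set of levels outside the choice. On the shared chip alone, with replicate 4 as the only 14 d array, the rule selected 23 probes, 12 of them members. The 3 livers of the second chip were all above every vehicle liver in 14 of these 23, where 7.86% of all probes showed this, and their mean was above the vehicle mean in 22. Their median difference from vehicle was 0.55, against 0.65 for replicate 4, which took part in the choice. The vehicle livers were shared by both and were picked as the lowest of the shared chip in these probes. The count of 14 is thus raised by the choice itself, and the 7.86% does not show by how much.

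Within the groups the members did not vary as 1 block. Deviations of each member from its group means were correlated over the 11 arrays for all pairs of members, as a description: the arrays are shared by all members, and 3 group means were removed. The median r was 0.11, with a range of -0.93 to 0.92, and 10 of the pairs exceeded 0.8. A total of 41 pairs were below -0.5.

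Members joined by pairs over 0.8 fell into small groups. Members 8, 12 and 15 varied together, with r of 0.85 to 0.92. Their mean deviation was 0.73 in 83 d replicate 4 and 0.36 in 14 d replicate 3, and -0.41 in vehicle replicate 1. Members 11 and 26 (r = 0.80) ran against them, with r of -0.93 to -0.70, and their mean deviation was lowest in 83 d replicate 4, at -0.38. Members 2, 9 and 10 formed another group, with r of 0.86 to 0.92, high in vehicle replicate 2 (0.52) and low in vehicle replicate 1 (-0.41) and 14 d replicate 4 (-0.38). Members 1 and 4 (r = 0.84) shared high levels in 14 d replicate 3 (0.74) and 83 d replicate 1 (0.73) and low ones in 14 d replicate 4 (-0.65). Members 23 and 27 (r = 0.82) and members 13 and 25 (r = 0.81) were the other pairs over 0.8. These groups were formed after the values were seen, and without gene names it cannot be told whether such members are probes of 1 gene.

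**Figure D5:**
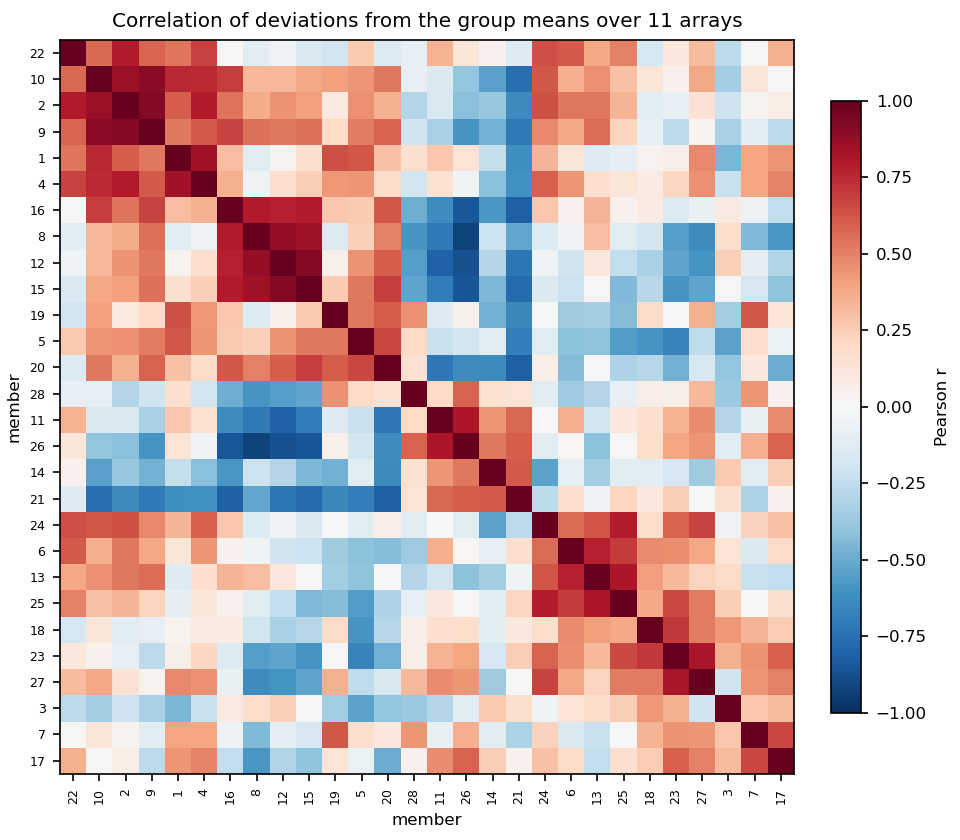
Pearson r between the 28 members of their deviations from the group means over 11 arrays, ordered by average-linkage clustering of 1 - r, on a scale from -1 to 1. Members 8, 12 and 15 form a block of 0.85 to 0.92 that is opposed to members 11 and 26, at -0.93 to -0.70.

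Some livers were the highest of their group in many members. In the 83 d group, replicate 1 was the highest liver in 14 of 28 members and replicate 2 in 1, where each array was the highest of its group in 22.8% to 26.9% of all probes. In the 14 d group, replicate 3 was the highest in 12 members and in 24.3% of all probes. In the vehicle group, replicate 2 was the highest in 13 members and thereby set the gap to the Sorafenib livers in these, replicate 1 did so in 10 and replicate 3 in 5. Each vehicle array was the highest of its group in 30.8% to 35.1% of all probes.

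How much background remained in the deposited intensities is not known here. After a normexp background correction, added after the data were seen, the median difference of the members was 1.13 at 83 d and 0.93 at 14 d. For member 1 it was 2.96 at 83 d and 2.91 at 14 d. Member 14, dim in vehicle livers, moved to 1.26 at 83 d and 1.12 at 14 d, whereas the bright member 18 stayed at 0.64 at 83 d and 0.65 at 14 d.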

How the data were processed

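Biotin-labelled total RNA from lysates of whole livers was run on 1-colour Illumina bead arrays, each with 1 sample, per the labels. The deposited table gives 1 intensity per probe and array, processed by the authors and linear as judged from its values. How the intensities were background-corrected and normalized, and with which software, is not given in the sources used here. An offset of 16 was added, log2 taken and the 11 arrays quantile normalized, because the deposited intensities did not share 1 distribution exactly. Groups came from the source labels. Members were selected by the rule stated above. Their selection and all lists were chosen with earlier results of these data known. The background was fitted with limma 3.58.1 in R 4.3.3 (lmFit on 3 groups, eBayes with an intensity trend, two-sided, Benjamini-Hochberg over 26512 probes, threshold 0.05), after a test on simulated data. Python 3.11.15 with matplotlib 3.10.9 made the figures. The rule for named items was to describe the first 25 members by the smaller difference, with single arrays for the first 12, and the members nearest each threshold. Members 26 to 28 were added to describe the whole set. Identifiers are limited to 2 because no table pairs them with genes, and the planned lists of marker and pathway genes were not analysed here. Precision is limited by the number of arrays, and p-values cover only the spread among these samples, which may be technical. Alternatives were other offsets and normalizations, other thresholds of the rule, the chip and the replicate number in the model, and leaving out arrays.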

Additional observations from a re-analysis of the deposited data

Results flagged for a closer look

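In 2 of 56 sets of values (each member in the 83 d and in the 14 d group, 4 livers a set), 1 liver was separated from the other 3 by more than Dixon's test allows. Chance gives about 1 in 20. For member 3 the liver was 14 d replicate 1, at a log2 level of 10.64, against 9.05 to 9.27 in the other 14 d livers. For member 11 it was 83 d replicate 4, at 7.93, against 8.45 to 8.53 in the other 83 d livers. Without these livers the difference from vehicle was 1.26 for member 3 at 14 d and 1.11 for member 11 at 83 d, against 1.63 and 0.97 with them. Vehicle livers, 3 in number, were not tested in this way.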

How the results depend on the processing

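The rule gave 28 probes and 25 to 32 with offsets of 1 and 50, without quantile normalization or with centring on the median, 24 to 27 of them members. A minimum difference of 1 left 9 probes, a largest difference of 0.25 between the Sorafenib means 16, and normexp, added after the data were seen, gave 62, of which 26 were members. Leaving out 1 array gave 24 to 64 probes, with 64 without vehicle replicate 2 and 57 without 14 d replicate 4. Without quantile normalization the 28 members stayed above vehicle at 83 d and 14 d. They also did so with offsets of 1 and 50 and with normexp. Those settings keep the order of the probes within each array, so after quantile normalization this direction could not change. On leaving out arrays the rule itself fixes this direction. Differences moved by over 1.5 times in 5 members at 14 d within the shared chip, and in 3 at 14 d and 2 at 83 d with normexp.

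For 14 d against vehicle 309 probes were called. The count was 292 with the chip as a random block. With replicate 4 as the only 14 d array of its chip, it was 6 with the chip as a fixed term and 2 within the shared chip. It was 187 without an intensity trend and 200 to 423 on leaving out 1 array. For 83 d against vehicle it was 763, and 480 to 847 on leaving out 1 array. For 83 d against 14 d it was 378, with 341 under the random block, 96 under the fixed chip term, 75 within the shared chip and 194 to 473 on leaving out 1 array. Single arrays moved these counts by over 1.5 times: vehicle replicate 1 at 14 d (200) and 83 d (480), vehicle replicate 3 at 83 d (494), and between the Sorafenib groups 83 d replicates 1 (194) and 2 (228) and 14 d replicate 3 (249). Counts of members called on leaving out 1 array were 22 to 27 at 83 d and 12 to 22 at 14 d, the 12 without vehicle replicate 1, and 1 member was called between the Sorafenib groups without 83 d replicate 3. Without an intensity trend 13 members were called at 14 d. With the replicate number as a block 340, 768 and 359 probes were called in the 3 comparisons. No sign was seen that the numbers pair the samples, though low correlations cannot exclude it. Same-numbered arrays had correlations of -0.10 to 0.12 in their deviations from the group means, and 1 of 11 arrays correlated best with its own number. The alternatives for gene lists were not run, since no probe could be named. The cause of these changes was not tested.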
